A study of Petromyzon marinus with 12 samples.

Results

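This account covers the genes of WNT, BMP and TGF-beta, FGF, Notch, Hedgehog and semaphorin signalling in the endostyle of the sea lamprey (Petromyzon marinus). They were chosen by the start of the gene name in the deposited count table. The rule itself uses no measured value, but it was set with earlier results of these data known. The rule found 47 of 21967 gene rows. Of these, 40 belong to the pathways, with 17 in WNT, 11 in BMP and TGF-beta, 2 in FGF, 5 in Notch and 3 in Hedgehog signalling and 2 semaphorin receptors. The other 7 (FSTL1, TGFBRAP1, FGFR1OP2, HHIPL1, PTCHD1, SPRYD3 and SPRYD7) were found by the beginning of their names and were counted apart. Any part they play in a pathway was not assessed. Bulk RNA of wild-type endostyle had been sequenced in 12 libraries, 3 from each of the stages named T27, T28, T29 and T30. No treatment or transgene is recorded for any group, and the labels do not say how many animals went into a library. The deposited values are raw read counts per gene, given here as CPM, the count scaled to a common library size, with TMM normalisation. A gene is said to have risen or fallen where edgeR's quasi-likelihood test, adjusted by the Benjamini-Hochberg method over all 16526 genes tested, gave an adjusted p under 0.05.

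WNT, BMP, FGF and Hedgehog ligands are secreted proteins that bind receptors on other cells. Notch differs in that its ligands sit in the membrane of the neighbouring cell. Each pathway has secreted or intracellular inhibitors that set how far and how strongly a signal acts. In larval lampreys the pharyngeal floor carries the endostyle, a gland from which thyroid tissue forms at metamorphosis, and in jawed vertebrates these pathways pattern the pharynx and thyroid.

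The libraries held between 28371140 and 36032488 counts. Of 12 marker genes used for endostyle and thyroid, 5 were found among the named rows (HHEX, PAX2, FOXA2, SLC5A5 and IYD), and all 5 rose over the span. Their summed level was 507.5 to 526.8 CPM in T30 libraries, against 273.0 to 296.9 CPM in T27 libraries. The thyroglobulin gene TG and the regulator NKX2-1 were not matched to a row. Markers of other tissue moved over the same span. The 8 connective tissue genes found of 12 fixed summed to 395.8 to 437.7 CPM at T30, against 1607.4 to 1865.0 CPM at T27, and all 8 fell. The 6 cell cycle genes found of 8 summed to 137.1 to 151.2 CPM, against 939.5 to 1032.6 CPM, and all 6 fell. The 8 muscle genes found of 10 summed to 702.0 to 1258.6 CPM, against 112.1 to 156.4 CPM, and all 8 rose. The 4 motile cilia genes found of 5 summed to 672.6 to 840.5 CPM, against 176.3 to 225.2 CPM, and all 4 rose. The 4 pigment cell genes found of 5 also rose, to 9.59 to 10.5 CPM at T30, against 0.969 to 2.05 CPM at T27. Of 3 endothelial genes found of 7 fixed, 2 fell (48.0 to 54.4 CPM, against 62.1 to 75.6 CPM), and 1 of 2 neuronal genes found of 9 rose (1.42 to 1.72 CPM, against 0.869 to 1.33 CPM). No cartilage marker of 4 was found among the named rows. The part of these tissue shifts in the results below was not tested, and in bulk tissue fewer cells of a type and less RNA per cell cannot be told apart.

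Between T27 and T30 the signalling genes mostly went down. Of 46 members tested, 36 (78.3%) changed, 9 higher and 27 lower at T30. Over all genes tested 68.8% changed, 34.8% higher and 34.1% lower, so the share of members called was near the background, and the called members lay mainly on the lower side. Their median log2 change was −0.44, against 0.01 over all genes. At any stage 42 members (91.3%) changed, against 76.8% of all genes. BMPR2, AXIN1, WNT9A and WNT11 were not called in that test, although WNT9A and WNT11 were called in single comparisons. The only member below the filter on low counts was PTCHD1, with between 0 and 9 counts in each library. By role, 3 of 12 ligands rose and 6 fell, and 2 of 12 receptors rose and 8 fell. Among 6 secreted antagonists 1 rose and 5 fell. Among 8 proteins that act inside the cell, counted as transducers, 1 rose and 6 fell. The transducers include inhibitors of signalling, namely SMAD6 and SUFU, which fell, and AXIN1, which was not called. Neither of the nuclear factors, RBPJ and HES1, was called.

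**Figure D1:**
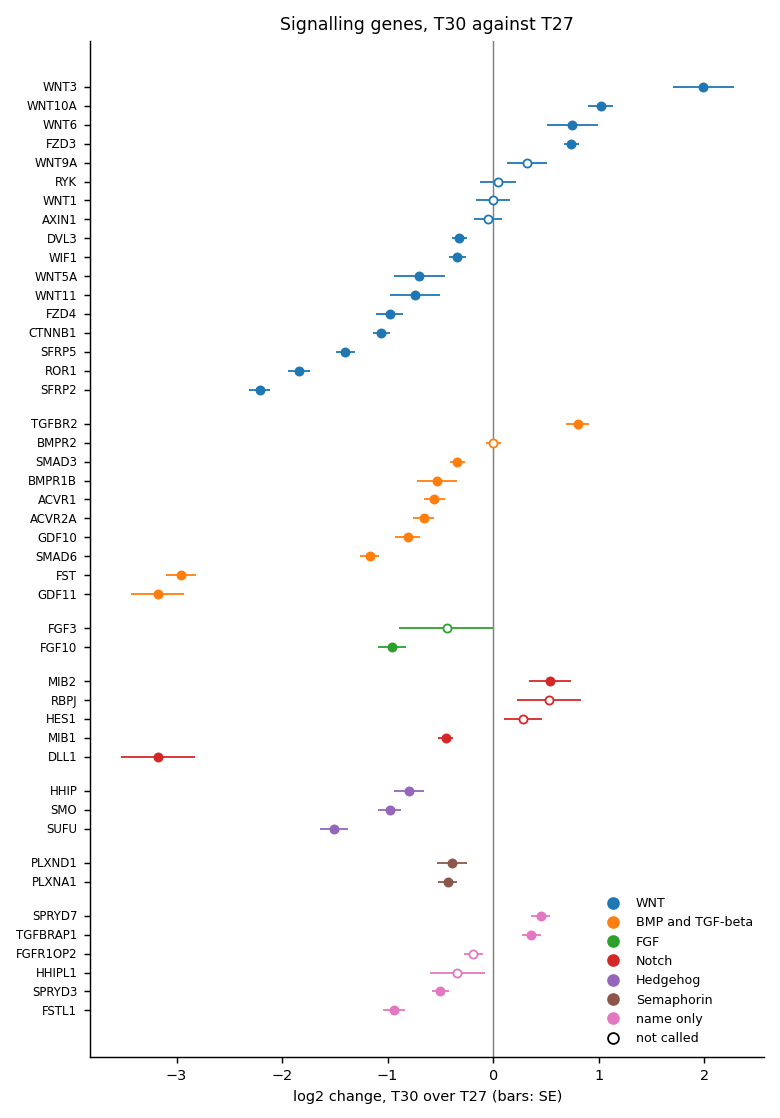
Log2 change of T30 over T27 (horizontal axis, bars are standard errors from the fit) for 45 of the 46 members tested, grouped by pathway. Filled points passed an adjusted p of 0.05 and open points did not; DLL1 and GDF11 lie farthest to the left, at −3.18, and WNT3 farthest to the right, at 1.99.

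The WNT ligands did not share a course. WNT10A had 13.3, 12.5 and 10.1 CPM in the T27 libraries, 18.9, 20.7 and 21.6 CPM at T28, 31.1, 27.6 and 31.3 CPM at T29, and 24.6, 26.3 and 21.6 CPM at T30. Each stage was separate from the one before it, and T29 was highest. It rose at the first step (log2 change 0.77, SE 0.12) and the second step (0.55, SE 0.12). It then fell between T29 and T30 (−0.31, SE 0.12, edgeR adjusted p = 0.0319), a call that was lost without T29 replicate 1 or 3 or T30 replicate 1 or 3, with edgeR adjusted p between 0.0602 and 0.124. Over the whole span it rose 2.02-fold.

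WNT3 was highest at T30. Its levels were 1.15, 0.435 and 0.768 CPM at T27, 1.47, 1.08 and 1.39 CPM at T28, 1.51, 1.23 and 1.04 CPM at T29, and 3.56, 2.94 and 2.85 CPM at T30. All 3 T30 libraries stood above the other 9, on 82 to 132 counts each. WNT3 rose 3.96-fold between T27 and T30 (log2 change 1.99, SE 0.29) and 2.46-fold between T29 and T30 (1.3, SE 0.27). Neither earlier step was called, though the first-step estimate was 0.74 (SE 0.31, edgeR adjusted p = 0.0919). The difference between the last and the first step was not called either (0.56, SE 0.41).

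WNT1 dipped and returned. It had 8.65, 9.47 and 7.01 CPM at T27, 5.31, 4.49 and 5.71 CPM at T28, 3.47, 4.87 and 3.63 CPM at T29, and 8.16, 8.83 and 8.23 CPM at T30. The T27 and T30 libraries overlapped, and both stood above all libraries of T28 and T29. WNT1 fell at the first step (log2 change −0.70, SE 0.17) and rose 2.10-fold at the last (1.07, SE 0.17). The change from T27 to T30 was 0.00 (SE 0.16).

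WNT6, the chromosomal neighbour of WNT1, averaged 3.86 ± 0.585 CPM at T30 (SD, n = 3), against 1.96 ± 0.560 CPM at T29 and 2.30 ± 0.561 CPM at T27 (SD, n = 3 each). It rose 1.97-fold at the last step (SE 0.24 on the log2 scale). Its 1.68-fold rise over the whole span was lost without T27 replicate 1 or T30 replicate 2, with edgeR adjusted p of 0.0634 and 0.054. WNT9A averaged 16.6 ± 3.75 CPM at T30, against 12 ± 2.09 CPM at T29 (SD, n = 3 each), and the libraries overlapped. Its call at that step (log2 change 0.46, SE 0.19, edgeR adjusted p = 0.0476) was lost in 8 of the 12 fits that left out 1 library (without T27 replicate 2, any T28 library, T29 replicate 2 or 3, or T30 replicate 1 or 2), with adjusted p between 0.0542 and 0.231.

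WNT5A and WNT11, which in other vertebrates act largely without beta-catenin, fell. WNT5A averaged 4.75 ± 1.43 CPM at T30, against 7.74 ± 1.5 CPM at T27 (SD, n = 3 each), a log2 change of −0.70 (SE 0.24, edgeR adjusted p = 0.0178). The value for WNT11 was 6.87 ± 0.750 CPM at T30, against 11.5 ± 3.24 CPM at T27 (−0.74, SE 0.24, edgeR adjusted p = 0.0145). Both calls were lost without T27 replicate 2 (edgeR adjusted p 0.0865 for WNT5A and 0.0852 for WNT11) and without T30 replicate 3 (0.0886 and 0.058).

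**Figure D2:**
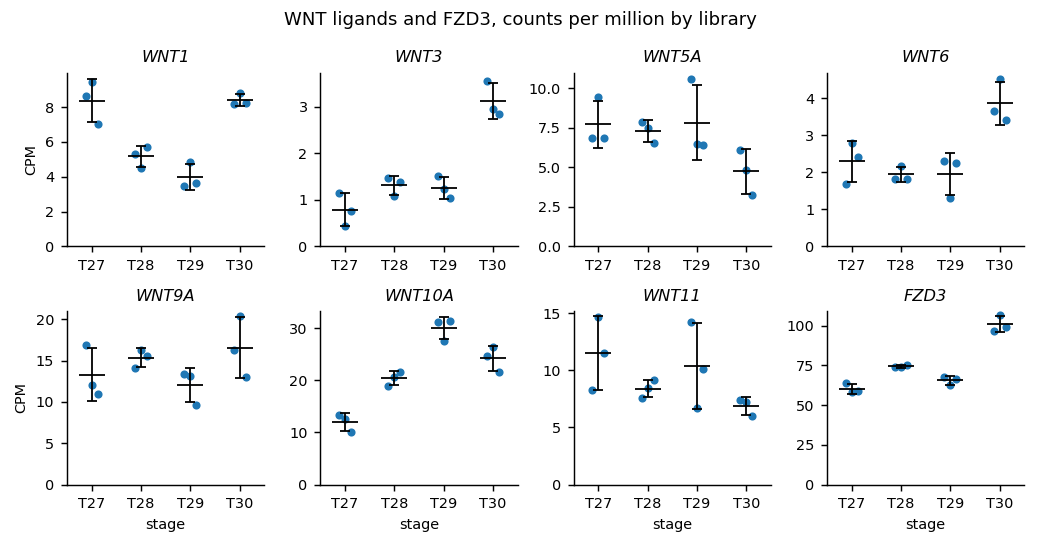
CPM in each library (points) at T27, T28, T29 and T30 for the 7 WNT ligands and the receptor FZD3, with mean and SD of 3 libraries (bars); each panel has its own vertical axis from 0. WNT10A is highest at T29, WNT1 is lowest at T28 and T29, and the T30 libraries of WNT3, WNT6 and FZD3 stand above all others.

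Levels of different genes were compared per kilobase of exon. Among the 7 WNT ligands that are members, WNT10A was the most abundant over the 12 libraries, at 11.7 CPM per kilobase. WNT4, which the rule did not find, was not ranked. WNT9A followed at 5.30, WNT1 at 1.97, WNT11 at 1.55, WNT5A at 1.51, WNT3 at 0.829 and WNT6 at 0.803 CPM per kilobase. WNT10A and WNT9A led at every stage, but the order of the other 5 changed between stages. At T29 the level of WNT1 (1.21 CPM per kilobase) was below those of WNT11 (1.73) and WNT5A (1.71). At T30 the levels of WNT3 (1.6) and WNT6 (1.23) were above those of WNT11 (1.15) and WNT5A (1.03). The 7 ligands summed to 26.7 ± 3.25 CPM per kilobase at T30 and 18.6 ± 2.15 CPM per kilobase at T27 (SD, n = 3 each), given as a description.

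WNT receptors went in opposite directions. ROR1, a WNT5A receptor in other vertebrates, had 93.2, 107.3 and 105.2 CPM at T27, 59.0, 63.2 and 60.9 CPM at T28, 44.6, 50 and 52.2 CPM at T29, and 32.7, 24.2 and 28.7 CPM at T30. No stage overlapped the next. The log2 change over the span was −1.84 (SE 0.10), with −0.74 at the first step and −0.78 at the last. The change of −0.32 at the middle step (edgeR adjusted p = 0.0484) was lost in 8 of 12 fits that left out 1 library (without T27 replicate 2 or 3 or any library of T28 or T29), with adjusted p between 0.0512 and 0.181.

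The frizzled receptor FZD4 had 32.5, 40.6 and 35.6 CPM at T27, 26.4, 25.6 and 29.5 CPM at T28, 26.9, 21.9 and 18 CPM at T29, and 19.0, 18.9 and 17.3 CPM at T30. T28 and T29 overlapped, as did T29 and T30, and the T30 libraries lay below all of T27. FZD4 fell over the span (log2 change −0.98, SE 0.13). Its first-step call (−0.41, edgeR adjusted p = 0.0314) was lost without T27 replicate 2 or 3 or T28 replicate 1 or 2 (0.0669 to 0.139). FZD3, another frizzled, rose to 101.0 ± 4.99 CPM, against 60.4 ± 3.07 CPM (SD, n = 3 each), which is 1.67-fold (SE 0.07 on the log2 scale). It rose at the first step (1.23-fold) and the last (1.54-fold). RYK, a kinase-like WNT receptor, was not called over the span (log2 change 0.05, SE 0.17). It rose between T29 and T30 (0.45, SE 0.17, edgeR adjusted p = 0.0362), a call that was lost without T29 replicate 2 or 3 or T30 replicate 1 or 2 (0.0609 to 0.15).

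All 3 secreted WNT antagonists among the members fell over the span, against 34.1% of all genes tested. SFRP2, a frizzled-related protein that binds WNTs, had 157.6, 157.0 and 181.9 CPM at T27, 89.9, 93.6 and 99.2 CPM at T28, 93.0, 77.1 and 87.8 CPM at T29, and 35.2, 40.0 and 32.4 CPM at T30. T28 and T29 overlapped, and T30 stood below every other library. The log2 change over the span was −2.21 (SE 0.10), made up of −0.81 at the first step and −1.26 at the last.

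SFRP5, of the same family, had 271.0, 270.1 and 279.6 CPM at T27, 194.0, 166.3 and 163.8 CPM at T28, 134.1, 145.9 and 165.1 CPM at T29, and 92.8, 110.6 and 108.0 CPM at T30. The T27 libraries were highest and the T30 libraries lowest, and T28 and T29 overlapped. It changed by −1.40 on the log2 scale (SE 0.09).

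WIF1, a WNT-binding inhibitor of another family, had 246.8, 275.8 and 272.1 CPM at T27, 242.3, 243.6 and 233.8 CPM at T28, 227.4, 235.4 and 228.2 CPM at T29, and 189.4, 229.5 and 207.4 CPM at T30. It fell little (log2 change −0.34, SE 0.08), and no single step was called. The 3 antagonists summed to 87.5 ± 7.68 CPM per kilobase at T30 and 199.0 ± 8.97 CPM per kilobase at T27 (SD, n = 3 each), a description of the same counts.

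Inside the cell, CTNNB1, which encodes beta-catenin, was the most abundant member per length, at 229.6 CPM per kilobase over the 12 libraries. It had 929.8, 951.0 and 993.0 CPM at T27, 833.7, 770.6 and 751.6 CPM at T28, 662.9, 678.0 and 756.8 CPM at T29, and 441.0, 495.4 and 446.4 CPM at T30. The T30 libraries lay below all the rest. It changed by −1.06 (SE 0.08) on the log2 scale over the span and by −0.60 (SE 0.08) at the last step. The first step (−0.29, edgeR adjusted p = 0.0183) was lost without T27 replicate 3 or T28 replicate 2 or 3 (0.0587 to 0.0815). DVL3, a dishevelled protein that relays frizzled signals, fell by 0.32 (SE 0.07), to 115.0 ± 12.7 CPM at T30, against 143.3 ± 0.945 CPM at T27 (SD, n = 3 each). AXIN1, the scaffold of the complex that degrades beta-catenin, was not called (log2 change −0.05, SE 0.13).

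**Figure D3:**
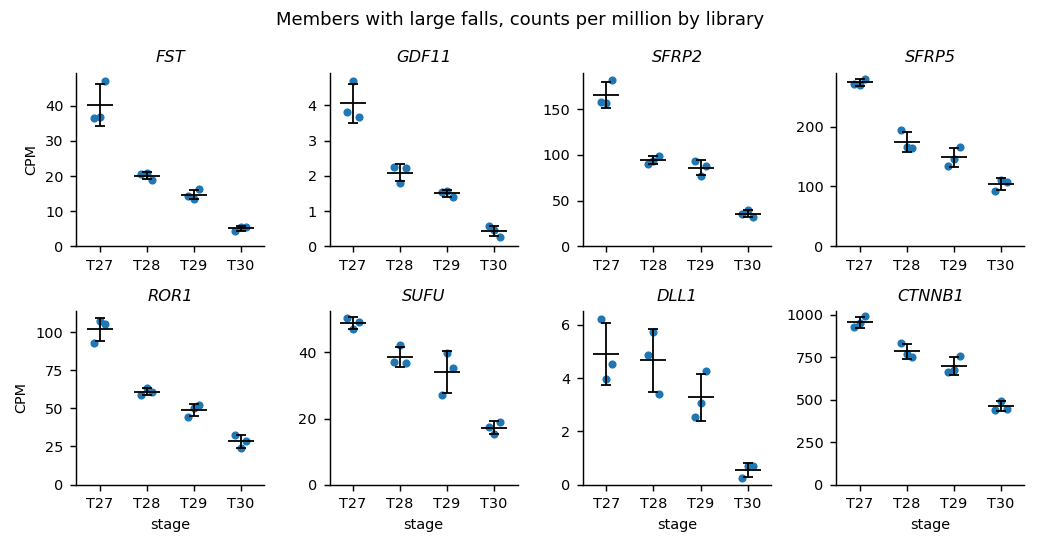
CPM in each library (points) by stage for 8 members that fell, with mean and SD of 3 libraries (bars); each panel has its own vertical axis from 0. FST, GDF11, SFRP2, SFRP5 and ROR1 already lie lower at T28 than at T27, while the DLL1 libraries of T27 and T28 overlap and those of T30 lie at 0.242 to 0.712 CPM.

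In the BMP and TGF-beta group, 8 of 11 members fell over the span and 2 rose, against 34.1% and 34.8% of all genes tested. GDF11, a ligand that acts through activin receptors, had 3.80, 4.69 and 3.67 CPM at T27, 2.24, 1.81 and 2.22 CPM at T28, 1.54, 1.57 and 1.39 CPM at T29, and 0.566, 0.465 and 0.278 CPM at T30, on 8 to 21 counts per T30 library. Each stage lay below the one before. The log2 change was −3.18 (SE 0.25) over the span, −0.96 at the first step and −1.75 at the last. GDF10, another ligand, fell at the first step alone among the 3 steps (log2 change −0.72, SE 0.12), to 26.7 ± 0.987 CPM at T28, against 44.1 ± 8.23 CPM at T27 (SD, n = 3 each), and stood at 25.1 ± 1.45 CPM at T30.

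FST encodes follistatin, which binds activins and GDF11. It had 36.6, 36.9 and 47.1 CPM at T27, 20.5, 20.9 and 18.9 CPM at T28, 14.4, 13.6 and 16.2 CPM at T29, and 4.39, 5.51 and 5.63 CPM at T30. No stage overlapped another. The fall over the span was −2.96 (SE 0.14) on the log2 scale, with −1.0, −0.45 and −1.51 at the successive steps. The middle step (edgeR adjusted p = 0.0316) was lost without T28 replicate 1 or 2 or T29 replicate 1 or 2 (0.0951 to 0.112).

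The receptors of this group were split. TGFBR2, the type II receptor of TGF-beta, had 86.4, 78.0 and 64.3 CPM at T27, 122.4, 130 and 140.1 CPM at T28, 159.3, 126.4 and 124.1 CPM at T29, and 132.6, 140.0 and 124.7 CPM at T30. All T27 libraries lay below the other 9. It rose 1.72-fold at the first step (SE 0.11 on the log2 scale) and was not called at either later step. Over the span TGFBR2 rose 1.74-fold. Of its 5748 exon bases, 1715 overlap exons of IQCB1 on the opposite strand, and the counting used no strand. ACVR2A, an activin type II receptor, fell to 54.0 ± 6.65 CPM at T30, against 85.4 ± 11.5 CPM at T27 (SD, n = 3 each; log2 change −0.66, SE 0.10), and the type I receptor ACVR1 to 17.4 ± 1.47 CPM, against 25.6 ± 1.13 CPM (−0.56, SE 0.10). BMPR1B, a type I BMP receptor, averaged 7.82 ± 1.31 CPM at T30, against 11.3 ± 1.26 CPM at T27 (−0.53, SE 0.19, edgeR adjusted p = 0.0213), and the call was lost without T27 replicate 1 or 2 or T30 replicate 2 or 3 (0.0513 to 0.0968). BMPR2, the type II BMP receptor, lay between 100.8 and 104.9 CPM on average at every stage and was not called in any comparison (log2 change over the span 0.00, SE 0.07).

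SMAD6, which inhibits BMP signalling inside the cell, had 102.4, 111.9 and 127.9 CPM at T27, 85.3, 82.0 and 75.7 CPM at T28, 63.8, 75.4 and 79.3 CPM at T29, and 49.5, 52.3 and 50 CPM at T30. It fell by 1.17 (SE 0.09) on the log2 scale. T28 and T29 overlapped, and the end stages stood apart from both. SMAD3, which carries TGF-beta and activin signals to the nucleus, lies next to SMAD6 and fell by 0.34 (SE 0.07), to 107.0 ± 8.54 CPM at T30, against 135.4 ± 6.11 CPM at T27 (SD, n = 3 each).

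Both FGF members are ligands. FGF10, a ligand of FGFR2 in other vertebrates, had 8.47, 9.56 and 8.72 CPM at T27, 11.5, 11 and 11.5 CPM at T28, 10.7, 8.90 and 11.3 CPM at T29, and 4.52, 4.77 and 4.48 CPM at T30. The T30 libraries lay below all others. FGF10 fell by 1.16 (SE 0.13) at the last step. Its rise at the first step (log2 change 0.35, SE 0.12, edgeR adjusted p = 0.0493) was lost in 8 of 12 fits that left out 1 library (any library of T27 or T28, T29 replicate 1 or T30 replicate 1), with adjusted p between 0.0576 and 0.134.

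FGF3 had 0.573, 2.55 and 0.835 CPM at T27, 0.352, 0.612 and 0.355 CPM at T28, 0.700, 0.448 and 0.442 CPM at T29, and 1.13, 0.991 and 0.764 CPM at T30, on 11 to 82 counts per library. Its call at the first step (log2 change −1.57, SE 0.49, edgeR adjusted p = 0.0292) leaned on T27 replicate 2. Without that library the change was −0.66 (adjusted p 0.269), and the call was also lost without T28 replicate 1 or 3 (0.0913 and 0.0965). It was lost too with limma (limma adjusted p 0.0756) and in a fit of T27 and T28 alone (edgeR adjusted p 0.0622).

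In the Notch group, the ligand DLL1 had 6.21, 3.97 and 4.54 CPM at T27, 4.86, 5.74 and 3.40 CPM at T28, 2.55, 3.05 and 4.26 CPM at T29, and 0.242, 0.712 and 0.695 CPM at T30, on 9 to 23 counts per T30 library. The first 3 stages overlapped and T30 lay below them. DLL1 changed by −2.60 (SE 0.36) on the log2 scale at the last step and by −3.18 (SE 0.35) over the span. The ubiquitin ligases that act on Notch ligands went in opposite directions. MIB1 fell to 131.2 ± 7.63 CPM at T30, against 179.4 ± 6.09 CPM at T27 (SD, n = 3 each; log2 change −0.45, SE 0.07). MIB2 rose to 10 ± 0.744 CPM, against 6.89 ± 0.442 CPM (0.54, SE 0.20, edgeR adjusted p = 0.0247), a call that was lost without T27 replicate 3 or T30 replicate 1 (0.0781 and 0.0791).

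RBPJ, the DNA-binding partner of activated Notch, rose 2.05-fold between T29 and T30 (SE 0.31 on the log2 scale), to 3.63 ± 0.217 CPM at T30, against 1.76 ± 0.884 CPM at T29 (SD, n = 3 each). HES1, a repressor that Notch switches on, averaged 58.1 CPM per kilobase over the 12 libraries. By stage means per length it was the third most abundant member at T28, T29 and T30, whereas at T27 it had 48.5 CPM per kilobase, below SFRP5 (76.1), SFRP2 (67.0) and WIF1 (56). It had 115.5, 106.4 and 116.5 CPM at T27, 158.7, 235.2 and 125.2 CPM at T28, 103.1, 108.7 and 138.8 CPM at T29, and 120.9, 161.9 and 128.4 CPM at T30. T28 replicate 2 was the highest of the 12 libraries. The rise at the first step (log2 change 0.62, SE 0.18, edgeR adjusted p = 0.0223) was 0.33 without that library (adjusted p 0.127) and was also lost without T27 replicate 2 or 3 (0.0769 and 0.0548).

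All 3 Hedgehog members fell over the span, against 34.1% of all genes tested. The rule found no Hedgehog ligand, PTCH receptor or GLI factor by name, so these 3 cover only part of the pathway. SUFU, which holds back the GLI transcription factors, had 50.5, 47.0 and 49.2 CPM at T27, 37.0, 42.2 and 36.9 CPM at T28, 27.1, 39.8 and 35.3 CPM at T29, and 17.5, 15.2 and 19.0 CPM at T30. T28 and T29 overlapped, and T30 was lowest. Its log2 change was −1.51 (SE 0.13) over the span and −0.99 (SE 0.13) at the last step. SMO, the membrane protein that passes on the Hedgehog signal, fell to 20.2 ± 1.87 CPM at T30, against 39.8 ± 4.73 CPM at T27 (SD, n = 3 each; −0.98, SE 0.11). HHIP, which binds Hedgehog ligands, fell to 15.9 ± 2.22 CPM, against 27.6 ± 4.04 CPM (−0.80, SE 0.14).

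Both plexins, receptors of the semaphorin guidance proteins, were lower at T30 than at T27, as were 34.1% of all genes tested. PLXND1 had 18, 22.7 and 18.8 CPM at T27, 12.3, 14.9 and 16.9 CPM at T28, 10.9, 11.3 and 8.40 CPM at T29, and 15.3, 15.7 and 14.5 CPM at T30. It was lowest at T29. It rose between T29 and T30 (log2 change 0.57, SE 0.15). The whole-span call (−0.39, edgeR adjusted p = 0.0265) was lost without T27 replicate 2 or T30 replicate 1 or 3 (0.0546 to 0.127). The first-step call (−0.43, edgeR adjusted p = 0.0379) was lost without T27 replicate 2 or 3, T28 replicate 1 or 2 or T30 replicate 3 (0.0535 to 0.169), and the middle-step call (−0.52, edgeR adjusted p = 0.0294) without T28 replicate 2 or 3 or T29 replicate 1 or 3 (0.055 to 0.121). PLXNA1 fell by 0.43 (SE 0.09), to 36.3 ± 2.70 CPM at T30, against 48.9 ± 2.87 CPM at T27 (SD, n = 3 each).

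Of the 7 genes counted apart from the pathways, FSTL1, a secreted glycoprotein, was the second most abundant member per length (178.5 CPM per kilobase). It had 254.6, 247.6 and 290.3 CPM at T27, 206.7, 193.0 and 192.5 CPM at T28, 205.9, 181.9 and 198.2 CPM at T29, and 142.3, 154.5 and 117.0 CPM at T30, a fall of 0.94 (SE 0.10). HHIPL1 had 41.3, 39.4 and 45.9 CPM at T27, 77.2, 39.1 and 58.3 CPM at T28, 58.6, 101.6 and 91.6 CPM at T29, and 33.5, 45.1 and 21.2 CPM at T30. Its T28, T29 and T30 libraries were widely spread, and it fell at the last step (log2 change −1.33, SE 0.27). Of the others, TGFBRAP1 and SPRYD7 rose over the span (1.29-fold and 1.37-fold), SPRYD3 fell (log2 change −0.50, SE 0.08), and FGFR1OP2 was not called (−0.19, SE 0.09).

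The 3 steps differed in how many members moved. Between T27 and T28, 23 of 46 members changed (50%), 5 higher and 18 lower, against 26.0% of all genes (14.3% higher and 11.8% lower). Between T28 and T29 only 6 members changed (13%), 2 higher and 4 lower, against 13.4% of all genes (7.86% and 5.54%). The WNT10A rise was the one call of that step that held in each fit that left out 1 library, and the count was 2, 1, 2 and 2 without T28 replicates 1 and 2 and T29 replicates 1 and 2. Between T29 and T30, 30 members changed (65.2%), 11 higher and 19 lower, against 60.3% of all genes (30.3% and 30.1%). The share of members called thus exceeded the background mainly at the first step, and no test of that excess was made.

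Whether a member moved differently at the first and the last step was tested by a contrast of the steps, which share no library. The steps differed in 25 of 46 members (54.3%), 15 with the higher change at the last step and 10 with the lower, against 44.8% of all genes tested (20.5% and 24.3%). In DLL1 (log2 difference, last step minus first, −2.53, SE 0.46) and FGF10 (−1.51, SE 0.18) the last step was the lower one. TGFBR2 (−0.82, SE 0.16) rose at the first step and had a change of −0.04 (SE 0.11) at the last. In MIB2 (0.96, SE 0.28) and WNT6 (1.22, SE 0.35) the last step was the higher one. No difference was called for SFRP5 (0.13, SE 0.13), SMAD6 (−0.03, SE 0.13) or ROR1 (−0.04, SE 0.14), with estimates near 0.

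**Figure D4:**
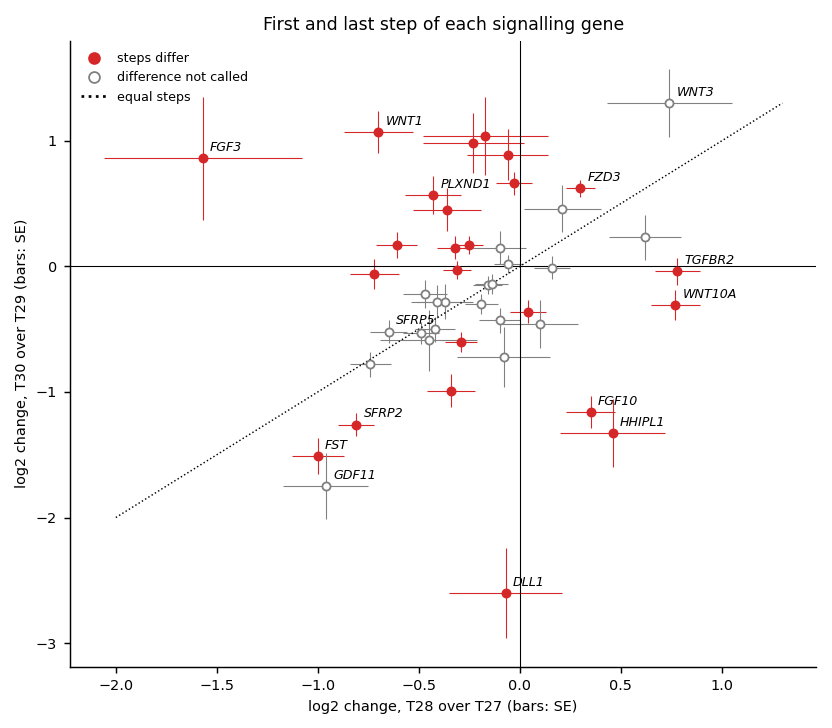
Log2 change of 45 members at the first step (T28 over T27, horizontal axis) and the last step (T30 over T29, vertical axis), with standard errors. Red points are the 24 of them whose steps differed at an adjusted p of 0.05; FST and SFRP2 fell at both steps, WNT1 and PLXND1 fell and then rose, and WNT10A and FGF10 rose and then fell.

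Other genes of these pathways were taken from lists of names outside the rule. Their counts stand beside the 34.8% of all genes called higher and 34.1% called lower at T30 than at T27. Some were matched through a newer RefSeq gene table of another assembly, since the count table gives them a locus number alone. FRZB, SMURF2, ETV1, EDNRB and SRGAP3 are among these. Of 53 further WNT pathway names, 15 were tested, and 3 rose and 8 fell between T27 and T30 (median log2 change −0.30). PORCN, the enzyme that attaches the fatty acid WNTs need for secretion, fell to 22.9 ± 1.41 CPM at T30, against 82.6 ± 5.81 CPM at T27 (SD, n = 3 each; log2 change −1.85, SE 0.08). WLS, which carries WNTs to the cell surface, fell to 62.0 ± 6.18 CPM, against 123.9 ± 7.04 CPM (−1.0, SE 0.12), and PTK7, a receptor of planar polarity, also fell (−1.27, SE 0.10). LGR5, a receptor that strengthens WNT signals, rose to 83.5 ± 7.55 CPM, against 58.8 ± 7.75 CPM (0.50, SE 0.10). SOSTDC1, a secreted antagonist of BMPs and WNTs, fell by 1.28 (SE 0.17). The secreted WNT antagonist FRZB was not called over the span (−0.57, SE 0.31, edgeR adjusted p = 0.116), but it fell at the last step (−1.04, SE 0.3).

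Of 41 further BMP and TGF-beta names, 12 were tested, and 6 rose and 4 fell (median log2 change 0.19). MSTN, myostatin, a growth inhibitor of muscle related to GDF11, had 5.19, 9.44 and 14.8 CPM at T27, 0.384, 0.233 and 0.444 CPM at T28, 0.112, 0.112 and 0.0316 CPM at T29, and no count in any T30 library. Against a floor of 3 counts over the T30 group (0.0306 CPM), the T27 mean of MSTN, 9.8 CPM, was 320.6-fold higher. The floor bounds the T30 side alone, and the T27 libraries were widely spread. The BMP regulators CRIM1 and BMPER changed by 0.99 (SE 0.12) and −1.30 (SE 0.14) on the log2 scale, and the ubiquitin ligase SMURF2 by 0.89 (SE 0.08).

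Of 32 further FGF names, 9 were tested, and 2 rose and 6 fell (median log2 change −0.34). KLB, beta-Klotho, the co-receptor of endocrine FGFs, had 0.392, 0.435 and 0.401 CPM at T27, 0.672, 0.379 and 0.266 CPM at T28, 0.700, 1.03 and 0.884 CPM at T29, and 20.6, 20.5 and 19.6 CPM at T30. The log2 change over the span was 5.62 (SE 0.24). ETV1, a transcription factor that FGF signalling induces in other vertebrates, fell to 59.4 ± 2.40 CPM at T30, against 192.7 ± 14 CPM at T27 (SD, n = 3 each; −1.70, SE 0.08), and the FGF inhibitor IL17RD fell by 0.60 (SE 0.07).

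Of 30 further Notch names, 12 were tested, and 2 rose and 5 fell (median log2 change −0.16). NRARP, a feedback inhibitor that Notch induces, fell to 115.5 ± 2.86 CPM at T30, against 252.1 ± 13.4 CPM at T27 (SD, n = 3 each; −1.13, SE 0.08), and ADAM17, a protease that can cleave Notch, rose by 0.96 (SE 0.14). Of 22 further Hedgehog names, 9 were tested, and 3 rose and 3 fell (median log2 change 0.13). GPR161, a ciliary receptor that restrains Hedgehog signalling, fell to 20.6 ± 0.910 CPM at T30, against 79.3 ± 5.62 CPM at T27 (−1.94, SE 0.08), and HHAT, which attaches the fatty acid of Hedgehog ligands, fell by 1.17 (SE 0.14). EFCAB7 and IQCE, which help tether a Hedgehog regulator at the cilium, rose by 1.26 (SE 0.21) and 0.92 (SE 0.11). Of 28 further guidance and endothelin names 4 were tested, and 2 rose and 1 fell (median log2 change 0.36). EDNRB, an endothelin receptor, averaged 1.19 ± 0.272 CPM at T27, 5.04 ± 0.937 CPM at T28, 7.51 ± 0.503 CPM at T29 and 2.99 ± 0.346 CPM at T30 (SD, n = 3 each). It rose at the first step (log2 change 2.08, SE 0.20), fell at the last (−1.33, SE 0.18) and was higher at T30 than at T27 (1.33, SE 0.21). ECE1, which processes endothelins, rose over the span (0.58, SE 0.16), and SRGAP3, which acts downstream of Slit receptors, fell (−0.78, SE 0.08).

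The same RefSeq gene table (assembly UKy_Petmar_22M1.pri1.0) gives 10 further rows, known in the count table by a locus number alone, a name that the rule would take. They are no members, since the rule reads the deposited names. Of 9 tested, 2 rose and 6 fell between T27 and T30, against 34.8% and 34.1% of all genes tested. FGFR2, an FGF receptor, had 64.8, 72.0 and 87.7 CPM at T27, 43.6, 39.3 and 36.3 CPM at T28, 24.4, 26.7 and 32.7 CPM at T29, and 11.7, 12.5 and 13.1 CPM at T30, a log2 change of −2.59 (SE 0.13). Each stage lay below the one before. The ligand TGFB2 fell to 15.5 ± 1.33 CPM, against 74.1 ± 12.6 CPM (SD, n = 3 each; −2.26, SE 0.12), and the Notch ligand JAG1 to 77.9 ± 6.69 CPM, against 124.4 ± 11.9 CPM (−0.68, SE 0.09). WNT4 was at 8.44, 6.77 and 5.28 CPM at T27, 17, 18.7 and 17.6 CPM at T28, 17.5, 19.2 and 14.9 CPM at T29, and 21.2, 17.3 and 18.6 CPM at T30, and rose at the first step (1.38, SE 0.16). FGF8 rose at the last step (0.66, SE 0.18) but was not called over the span (0.22, SE 0.18). The BMP antagonist NOG and the ligand FGF6 fell, with log2 changes of −0.96 (SE 0.23) and −0.91 (SE 0.26). The SEMA3G rise (log2 change 0.65, SE 0.27, edgeR adjusted p = 0.0405) was close to the threshold. Its T30 libraries had 5.52, 2.32 and 5.28 CPM, and its T27 libraries 3.14, 2.70 and 2.51 CPM. The FSTL4 fall was close to it too (−0.68, SE 0.28, edgeR adjusted p = 0.0425), at means of 0.619 CPM at T30 and 0.987 CPM at T27. WNT16 did not pass the filter.

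**Figure D5:**
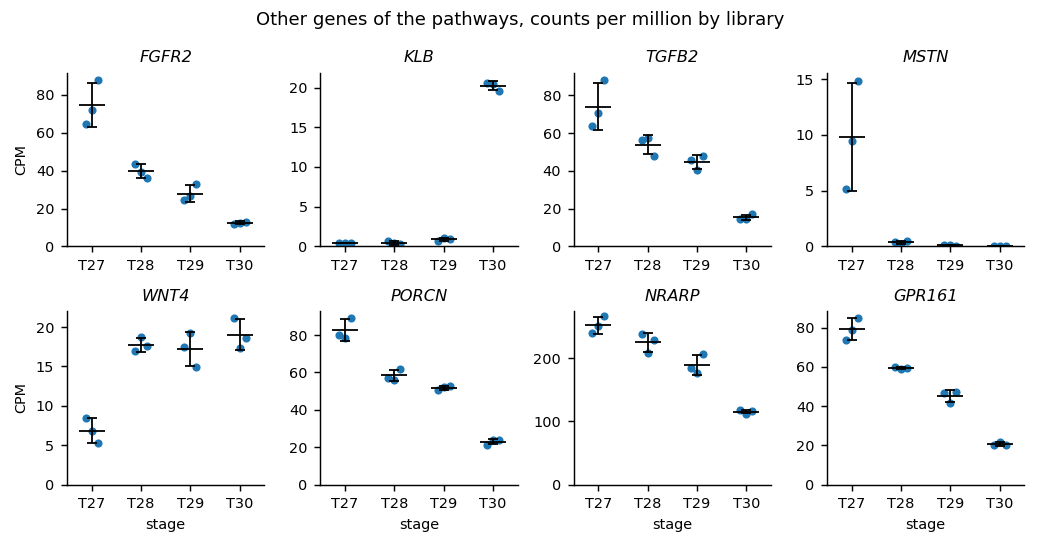
CPM in each library (points) by stage for 8 further genes of these pathways, with mean and SD of 3 libraries (bars); each panel has its own vertical axis from 0. The KLB libraries of T30 lie at 19.6 to 20.6 CPM and all earlier ones at 1.03 CPM or lower, while FGFR2, TGFB2, PORCN, NRARP and GPR161 are lowest at T30.

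Some members are neighbours in the genome. On sequence NC_046070.1 of kPetMar1, WNT6 runs from 20820017 to 20864644 on the minus strand, WNT1 from 20893445 to 20917911 on the plus strand and WNT9A from 20949831 to 20990923 on the plus strand. The gaps between them are 28800 and 31919 bp, with 0 annotated genes between. At the last step WNT6 and WNT1 changed by 0.98 (SE 0.24) and 1.07 (SE 0.17) on the log2 scale and WNT9A by 0.46 (SE 0.19), while at the first step the changes were −0.23 (SE 0.25), −0.70 (SE 0.17) and 0.21 (SE 0.19). SMAD6 and SMAD3 lie 22461 bp apart on NC_046069.1, both on the plus strand. Their log2 changes over the span were −1.17 and −0.34. Exons of FGF10, SFRP5 and HHIP overlap another gene by 5, 46 and 172 bp.

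The authors also deposited scores that compare genes across Ciona, a tunicate that has an endostyle, the 4 lamprey stages and zebrafish. The sources used here do not state the tissue of the Ciona and zebrafish columns or the unit that was scored. Each score places a column against the gene's own mean over the 6 columns, with 1 value per column and no replicate, so no test was possible. Of 1671 genes, 9 are members. In 7 of these 9 the Ciona column was highest, as in 946 of the 1671 genes. FZD4, SMAD3, MIB1, SUFU, GDF10 and SPRYD3 had Ciona scores between 1.86 and 2.03. DLL1 scored 1.09 for Ciona, 0.41 at T27, 0.42 at T28, 0.28 at T29, −0.41 at T30 and −1.79 for zebrafish, so its lowest column was zebrafish. SMO was highest at T27 (1.27) and lowest at T30 (−1.18), with 0.89 for Ciona and 0.16 for zebrafish. SPRYD7 was highest at T30 (1.06) and lowest at T27 (−1.67). The lamprey score columns carry the stage names of these libraries, and the libraries behind them are not stated. These scores were not taken as separate evidence. Among the 9 members, the order of the stage scores was that of the mean CPM only in SMO and SUFU. DLL1, FZD4 and SPRYD3 differed in order, as did the members that follow. SPRYD7 had its highest mean at T29 (58.5 CPM, against 58.1 CPM at T30). MIB1, GDF10 and SMAD3 were lowest at T30 by mean CPM. Their T30 scores (−0.15, −0.28 and −0.33) were above those of T28 and T29. Why the orders differ was not tested.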

How the data were processed

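Raw counts of reads were deposited by the authors. Per the file headers they were made with featureCounts 1.6.3 on a kPetMar1 annotation, and the recorded command holds no option for strand, read pairs or reads that map to several places. Bowtie2 and DESeq2 are also named, per the submitters' processing notes. For Bowtie2, settings and version were not given in the sources used here. An aligner of this kind cannot place reads across introns, which can lower the counts of genes with short exons. Exon lengths come from the deposited table. The deposited cross-species values are scores (z-scores per the file name, each gene's mean over the 6 columns within 0.00333 of 0).

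Genes were kept with filterByExpr (minimum count 10), and edgeR 4.0.16 in R 4.3.3 gave TMM factors and quasi-likelihood fits over all 12 libraries (8 residual degrees of freedom). The SE of a log2 change is its size over the root of the F statistic. The fitting was tested on simulated data. Alternatives used limma 3.58.1, DESeq2 1.42.0, other scaling and filters, a replicate term and fits without single libraries. Nothing states that numbered replicates are separate animals, so the p-values reflect the spread among these libraries, and that spread may be technical. The members, gene lists and rules were chosen with earlier results of these data known. Values of every library are given for members with the largest called changes over the span (12) and at each step (4), with opposite calls at the first and last step, and with the highest level per length (6), where a stage mean reached 1 CPM, and for some other genes chosen after their values were seen, TGFBR2 and KLB among them. Of 13987 rows with a locus number, 688 were named through RefSeq, and an unmatched gene may still be among the rows. Precision is lower for genes with few counts. Results for some genes are not reported here.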

Additional observations from a re-analysis of the deposited data

Results flagged for a closer look

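In 4 members the first and the last step were called in opposite directions and the contrast of the steps was itself called, which put them forward for a closer look. The log2 difference, last step minus first, was 1.77 in WNT1 and 1.0 in PLXND1, which fell and then rose. It was −1.08 in WNT10A and −1.51 in FGF10, which rose and then fell. The opposite directions rest on weak calls in part, since the first-step calls of FGF10 and PLXND1 and the last-step call of WNT10A were lost when single libraries were left out, whereas both step calls of WNT1 were kept in each such fit.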

How the results depend on the processing

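Of 95 changes of single members called over the 4 comparisons, 69 were kept under each alternative that gave a value, 26 were lost under at least 1 and 0 reversed. The lost ones numbered 8 for T28 against T27, 5 for T29 against T28, 6 for T30 against T29 and 7 for T30 against T27. Some were lost not only without single libraries but also under another test, filter, replicate term or fit of the compared stages alone. They were FGF3 and FGF10 (first step), DVL3, PLXND1 and ROR1 (middle step), and WNT9A, BMPR1B, WNT11 and RYK (last step). The number of members called between T28 and T29 depended most on single libraries, with 1 to 8 called when 1 library was left out, against 6. Under the other alternatives it was 4 to 9. Leaving out 1 library gave 38 to 43 members called at any stage, 16 to 24 for the first step, 26 to 29 for the last, 31 to 36 for the whole span and 21 to 25 for the difference of the steps. DESeq2 size factors left every count of members as it was, and the median change of all genes moved by 0.01 or less. No pairing of libraries by replicate number is recorded, and the deviations of same-numbered libraries correlated at −0.289 to 0.241 over 18 pairs, with 4 above 0.1. With the replicate number as a block, 42, 22, 4, 28, 36 and 24 members were called, in the order any stage, first, middle and last step, whole span and difference of the steps. The alternatives for the difference of the steps were chosen after seeing the data. Counts of 8 to 23 per library limit DLL1 and GDF11 at T30.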
